A study of Mus musculus with 30 samples.

Results

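Fgf3, Fgf4, Fgf8, Fgf15, Fgf17 and Fgf18 are the listed fibroblast growth factor (FGF) ligands of the tailbud, the growth zone at the tail end of the embryo. They were chosen by name and make up 6 of the 54134 rows of the count table, and all 6 were found there under these symbols. Their transcripts were followed through 5 stages of culture in which mouse embryonic stem cells (ESCs) of the Bruce4 line were turned into neuromesodermal progenitors (NMPs), the cells that feed both spinal cord and mesoderm. Cells were wildtype or Nr6a1-/-, that is, without functional copies of Nr6a1, an orphan nuclear receptor of the early embryo, and each of the 10 groups held 3 libraries. The Nr6a1-/- cells came from 1 CRISPR/Cas9 clone with a different deletion in an internal exon of each allele, so that genotype and clone cannot be told apart. Every group received FGF2 protein from day 0, so that all values below were read in cells already exposed to an FGF. The d2 groups had FGF2 alone. CHIR99021, a Wnt pathway agonist, was added from day 2, and the d2.5 and d3 groups were taken 12 h and 24 h later. At d4 the cells had either FGF2 and CHIR99021 alone (d4) or Gdf11, a growth factor of the trunk-to-tail transition, as well from day 3 (d4G). ESCs were grown on embryonic fibroblast feeders that were depleted before differentiation.

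FGF ligands are secreted proteins that bind FGF receptor tyrosine kinases together with heparan sulfate on the cell surface and signal largely through the ERK cascade. In the tailbud, Fgf8 and Fgf4 hold presomitic mesoderm in an immature state, and Fgf3 takes part in extending the body axis. Fgf8, Fgf17 and Fgf18 form a subfamily of closely related ligands, Fgf4 is also a product of the pluripotent epiblast, and Fgf15 is the mouse counterpart of human FGF19, a hormone-like member that acts with Klotho proteins in the adult.

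Fgf3, Fgf4 and Fgf15 are neighbours. On GRCm38 (GENCODE vM21), Fgf3 lies at chr7:144838083-144844436, Fgf4 at chr7:144847367-144865243 and Fgf15 at chr7:144896531-144900953, all on the plus strand and together within 62.9 kb. The members of the Fgf8 subfamily are on separate chromosomes, Fgf8 at chr19:45736798-45742915, Fgf17 at chr14:70636203-70642268 and Fgf18 at chr11:33117430-33147400, all on the minus strand. Fgf15 overlaps the antisense genes Gm26793 and Gm39119, which held 68 and 2 counts over all 30 libraries. Whether counting kept to 1 strand is not stated, so that reads of Fgf15 and of these genes cannot be told apart. Reads that the counting assigned to neither gene would not appear in those counts, and the level of Fgf15 is uncertain. RefSeq promoters (GRCm38.p6, 250 bases before to 50 after the start) were at hand for Fgf3, Fgf4 and Fgf18, with a GC content of 59.3%, 69.7% and 78.7%. Those of Fgf3 (chr7:144838362-144838661) and Fgf4 (chr7:144861136-144861435) lie inside the GENCODE genes given above. Their RefSeq starts are thus downstream of the GENCODE starts. They were searched on both strands for AGGTCA, a core sequence of nuclear receptor binding, for CTTTGA, the core of TCF/LEF factors that act downstream of Wnt, and for TCACAC, a core of T-box factors, because the cultures change a nuclear receptor and Wnt signalling. The only match was a TCF/LEF core on the opposite strand of the Fgf3 promoter, with its first base 197 bases before the RefSeq start, within chr7:144838406-144838429 of the plus strand. The match is shown with its surroundings, in capitals.
Fgf3 promoter: ggtgaaaatTCAAAGtcttctttc
Of 32851 promoters of the same length, 16.3% held AGGTCA, 16.0% CTTTGA and 14.5% TCACAC, so that a match to 1 of them is common.

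Library totals ran from 1570714 to 3688197 counts, and a count of 0 allowed up to 0.829 to 1.91 CPM (counts scaled to the library's size), counting error only. CPM values were further scaled by TMM factors and, because the libraries read the 3′ end of transcripts, are compared between groups and never between genes. Within wildtype the summed levels of markers followed the labels from d2 to d3. The summed level of 7 NMP markers (T, Sox2, Nkx1-2, Cdx1, Cdx2, Cdx4 and Wnt3a) rose from 125 to 150.0 CPM per library at d2 to 932 to 1008 at d3, while that of 7 epiblast markers went from 2712 to 2746 down to 198 to 214. Neither list had a marker at 0 in those groups. Single markers did not all follow the sums. Sox2 fell from 126 CPM, most of the NMP sum at d2, to 78.5 at d3. Nanog of the epiblast list rose from 21.7 CPM at d2 to 54.3 at d2.5 before it fell to 13.5 at d3. The d4 wildtype replicate 2 stood apart, with 733 CPM of epiblast markers against 97.2 and 89.5 in replicates 1 and 3, and the main d4 results of the ligands are also given without it. Replicate 1 of d4 Nr6a1-/- stood apart in another way, with a chi-square per gene of 5.64 and 6.68 against its fellow replicates, where the other 28 pairs of replicates gave 1.45 to 4.61, the lowest TMM factor (0.909) and a summed level of neural progenitor markers of 48.5 CPM against 78.9 and 80.1. Nr6a1 counts did not check the genotype, since the deletions lie away from the 3′ end: at d4 its level was 97.6 ± 1.59 CPM in wildtype and 223 ± 33.0 in Nr6a1-/- libraries (SD, n = 3). No 2 replicates held the same counts, but the labels alone say that they are separate samples. Library indexes are used again between d4 and d4G for 4 index sequences, which are those of the 3 wildtype libraries and of Nr6a1-/- replicate 1, and between d3 and d4 for 2, those of Nr6a1-/- replicates 2 and 3. Libraries with the same index cannot have shared a pool, so that for them pool cannot be told apart from Gdf11 or from stage.

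In wildtype cells the ligands followed different courses. Within 12 h of CHIR99021, Fgf4 and Fgf15, which were present at d2, fell, and Fgf8 and Fgf17 rose. From d2.5 to d3 Fgf4, Fgf8, Fgf15 and Fgf17 all rose. From d3 to d4 Fgf3, Fgf4, Fgf15 and Fgf17 rose, a change of Fgf8 was not detectable, and Fgf18 was called at no step. Tests were made with the quasi-likelihood method of edgeR, fitted to the 12149 genes that passed a filter on low counts, and a gene is called where the Benjamini-Hochberg FDR was below 0.05. All 6 ligands passed the filter. Fgf18 passed only through the d4G wildtype libraries, so that a high level in that group was a condition of its being tested. In bulk RNA, fewer cells making a transcript and less transcript per cell cannot be told apart. Where groups of libraries are said below not to overlap, the share of all tested genes that do the same was not counted in any comparison.

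**Figure D1:**
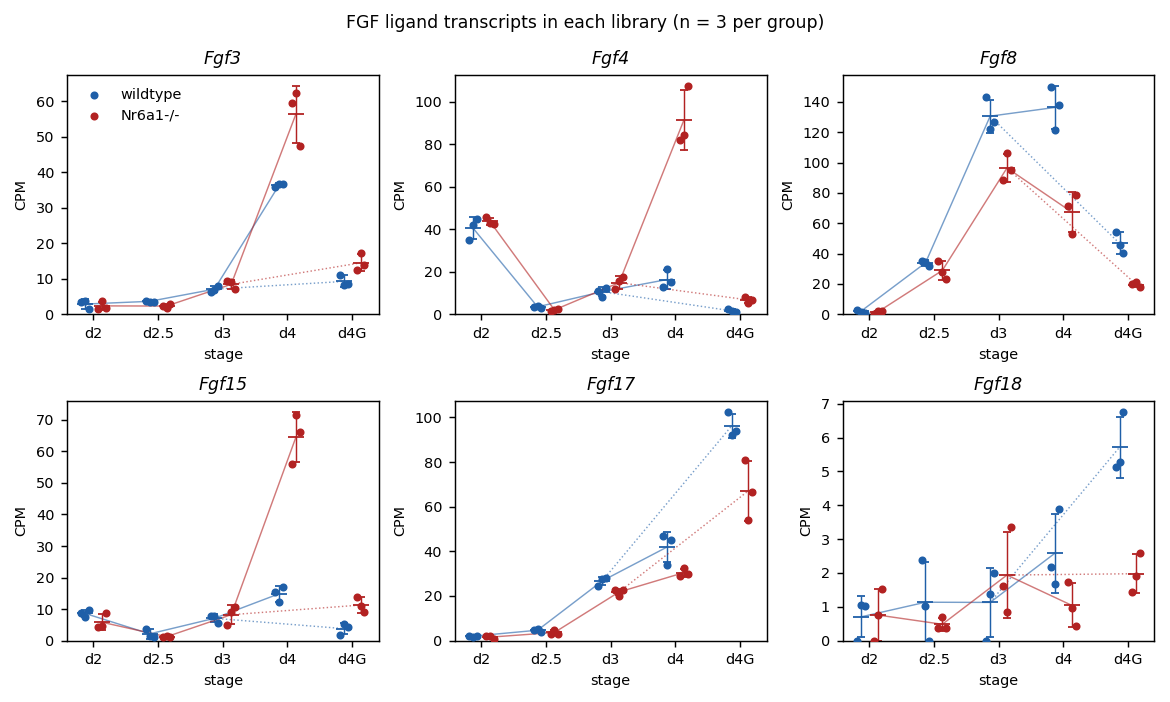
Level of each ligand (CPM, linear axes that differ between panels) in every library at the 5 stages, with points for libraries, bars for mean and SD (n = 3), blue for wildtype and red for Nr6a1-/-. Solid lines join the stages without Gdf11 and dotted lines lead from d3 to d4G. Fgf4 and Fgf15 of Nr6a1-/- cells stand far above wildtype at d4 (91.1 against 16.3 CPM and 64.5 against 14.8 CPM), and Fgf8 stands below it (67.4 against 136 CPM).

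Fgf8, the main ligand of the tailbud and presomitic mesoderm, was almost silent before CHIR99021. Wildtype libraries held 3.06, 1.59 and 1.03 CPM before the agonist (d2), 35.3, 34.6 and 31.9 after 12 h of it (d2.5), 143, 122 and 127 after 24 h (d3), 149.5, 121 and 138 on day 4 (d4), and 54.4, 45.5 and 40.1 with Gdf11 (d4G). The d2.5 libraries were all far above those of d2, and the d3 libraries all above those of d2.5, whereas d3 and d4 overlapped. The rise was 18.0-fold from d2 to d2.5 (log2 fold change 4.17, SE 0.302, FDR = 2.83e-13) and 3.84-fold from d2.5 to d3 (1.94, SE 0.149, FDR = 6e-12). From d3 to d4 the log2 difference was 0.06, with a 95% interval of -0.19 to 0.31 (FDR = 0.789), so that a change of either sign within that interval was not detectable.

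Fgf17, its close relative, went on rising where Fgf8 stopped. It stood at 2.19, 1.59 and 2.06 CPM in the d2 wildtype libraries, at 4.76, 5.08 and 4.05 in those of d2.5, at 24.6, 27.6 and 28.0 by d3, at 46.6, 34.0 and 45.0 by d4, and at 102, 92.2 and 94.0 with Gdf11. Successive groups did not overlap at any step. The step from d2.5 to d3 was the steepest (5.73-fold, log2 2.52, SE 0.236, FDR = 5.17e-10), and the rise from d3 to d4 was smaller (1.55-fold, log2 0.63, SE 0.149, FDR = 0.0019). The early step from d2 to d2.5 (2.31-fold, log2 1.21, SE 0.400, FDR = 0.0326) rested on 14 and 28 counts in all and was lost under 8 of 12 alternatives, among them DESeq2 and the removal of any 1 library of d2 (1.28, 1.10 and 1.25 without replicates 1, 2 and 3) or of replicate 1 or 2 of d2.5 (1.19 and 1.13).

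Fgf18, the remaining member of that subfamily, held few counts. In wildtype the d2 libraries held 0, 1.06 and 1.03 CPM, the d2.5 libraries 2.38, 1.02 and 0, the d3 libraries 0, 1.38 and 2.0, the d4 libraries 2.18, 1.66 and 3.90, and the d4G libraries 5.12, 5.28 and 6.75. These are 24 counts at d4 and 40 at d4G, and no wildtype step without Gdf11 was called (FDR = 0.64, 0.989 and 0.255 in order).

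Fgf4, which the epiblast makes before gastrulation and the primitive streak makes again later, fell steeply and returned only in part. Wildtype libraries of d2 held 35.0, 42.0 and 44.7 CPM, those of d2.5 3.33, 4.06 and 3.04, those of d3 11.1, 8.29 and 12.4, those of d4 12.6, 21.3 and 15.0, and those of d4G 2.33, 1.62 and 0.843. Neither the fall to d2.5 nor the return by d3 left an overlap. The fall was to 0.0866 of the d2 level (log2 -3.53, SE 0.254, FDR = 2.59e-13), and the return was 3.04-fold (log2 1.60, SE 0.325, FDR = 0.000673). A further rise from d3 to d4 (1.56-fold, log2 0.64, SE 0.218, FDR = 0.031) is uncertain, since d4 wildtype replicate 2, with its high epiblast markers, is the highest of its group. Without that library the difference was 0.40 and not called, and it was also lost without d3 wildtype replicate 1 (0.66) or 2 (0.49).

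Fgf15 also fell by d2.5 and rose afterwards. The wildtype libraries had 8.75, 7.44 and 9.64 CPM before CHIR99021 (d2), 3.81, 1.52 and 1.01 by d2.5, 7.72, 7.83 and 5.60 by d3, 15.3, 12.2 and 17.1 by d4, and 1.86, 5.28 and 4.22 with Gdf11. The d2.5 libraries were below all those of d2 and d3. The fall was to 0.251 of the d2 level (log2 -1.996, SE 0.425, FDR = 0.000529), and rises followed to d3 (3.196-fold, log2 1.68, SE 0.448, FDR = 0.0101) and to d4 (2.11-fold, log2 1.07, SE 0.279, FDR = 0.00468). The rise to d3 was lost without d2.5 wildtype replicate 2 (1.51) or 3 (1.36) and when all libraries were thinned to the smallest total (1.00).

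Fgf3 was first called in the step from d3 to d4. It was low through d2 (3.50, 3.72 and 1.38 CPM in wildtype), d2.5 (3.81, 3.56 and 3.54) and d3 (6.28, 6.91 and 8.0), reached 35.7, 36.7 and 36.6 CPM on d4 and stood at 11.2, 8.12 and 8.43 with Gdf11. The d4 libraries were far above all others and close to each other. The rise from d3 to d4 was 5.09-fold (log2 2.35, SE 0.203, FDR = 3.3e-11), whereas the step from d2.5 to d3 missed the threshold (log2 0.96, FDR = 0.0577).

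Counted over the 6 ligands, 2 rose and 2 fell from d2 to d2.5, where 25.4% of all tested genes were called, 4 rose and 0 fell from d2.5 to d3 (11.5% of all genes called), and 4 rose and 0 fell from d3 to d4 (21.1%). DESeq2 called 3, 4 and 3 of the 6 in these steps. Without d4 wildtype replicate 2 the log2 change from d3 to d4 was 2.35 for Fgf3, 1.23 for Fgf15 and 0.78 for Fgf17, all still called, and 0.15 for Fgf8 and 1.39 for Fgf18, neither called.

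Between genotypes the ligands parted mainly at d4. At d2 and d2.5 no ligand was called by edgeR or DESeq2, and 0 of 6 had an unadjusted p below 0.05 at either stage, against 4.07% and 6.45% of all genes called. The 95% intervals ran from -0.21 to 0.42 for Fgf4 at d2 and from -0.59 to 0.11 for Fgf8 at d2.5, and they were wide where counts were few. At d2.5 those of Fgf3 (log2 -0.65, -1.46 to 0.17) and Fgf4 (-0.74, -1.64 to 0.16) leave room for lower levels in Nr6a1-/- cells. The groups did not overlap for these genes, but they held only 17 to 22 counts each, and how many of all genes do so was not counted. At d3 1 ligand of 6 was called, Fgf8, against 10.8% of all genes, and 2 of 6 had an unadjusted p below 0.05 in edgeR. The other was Fgf4, which was higher in Nr6a1-/- cells but not called (log2 0.48, 95% interval 0.014 to 0.944, FDR = 0.197). Fgf8 held 88.3, 106 and 94.8 CPM in Nr6a1-/- libraries at d3, all below the 143, 122 and 127 of wildtype (0.739-fold, log2 -0.44, SE 0.128, FDR = 0.0208). This call was lost without d3 wildtype replicate 1 (-0.38) and without d3 Nr6a1-/- replicate 1 (-0.39) or 3 (-0.43).

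At d4 5 of the 6 ligands differed between genotypes, 3 higher and 2 lower in Nr6a1-/- cells, against 18.9% of all genes called. DESeq2 called 4 of them, all but Fgf17. The median log2 difference of the 6 was 0.09 and that of all tested genes 0.02, since rises and falls were mixed. The 3 that rose are the neighbours on chromosome 7, and the 2 that fell belong to the Fgf8 subfamily.

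Fgf4 differed most in size. Its Nr6a1-/- libraries held 81.9, 84.2 and 107 CPM at d4, against 12.6, 21.3 and 15.0 in wildtype, and no wildtype library came near them. The difference was 5.45-fold (log2 2.45, SE 0.159, 95% interval 2.12 to 2.77, FDR = 1.41e-14). It was 2.69 on the log2 scale without d4 wildtype replicate 2. Fgf15 behaved alike, with 55.9, 71.6 and 66.0 CPM in Nr6a1-/- and 15.3, 12.2 and 17.1 in wildtype libraries (4.35-fold, log2 2.12, SE 0.197, FDR = 1.36e-10), and 1.96 without that library. Fgf3 rose less, from 35.7, 36.7 and 36.6 CPM in wildtype to 59.3, 62.4 and 47.3 in Nr6a1-/- (1.54-fold, log2 0.63, SE 0.146, FDR = 0.00182), and by 0.62 without it. For each of these genes all Nr6a1-/- libraries were above all wildtype libraries. Without d4 Nr6a1-/- replicate 1 the values were 2.504 for Fgf4, 2.20 for Fgf15 and 0.57 for Fgf3, all called.

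Fgf8 moved the other way. Its d4 libraries held 71.0, 52.7 and 78.4 CPM in Nr6a1-/- cells, all below the 149.5, 121 and 138 CPM of wildtype (0.498-fold, log2 -1.005, SE 0.131, FDR = 2.85e-07), and the difference was -1.10 without d4 wildtype replicate 2 and -1.06 without d4 Nr6a1-/- replicate 1. Fgf17 was lower by less, with 29.0, 32.4 and 29.8 CPM against 46.6, 34.0 and 45.0 (0.732-fold, log2 -0.45, SE 0.146, FDR = 0.0263). The groups did not overlap, but the gap between the nearest libraries was small and the call was lost under 8 of 13 alternatives. Among these were the removal of d4 wildtype replicate 1 (-0.38) or 3 (-0.40) and of d4 Nr6a1-/- replicate 1 (-0.43) or 3 (-0.44), while without d4 wildtype replicate 2 it was -0.61 and stayed called. Fgf18 held 1.73, 0.968 and 0.426 CPM in Nr6a1-/- and 2.18, 1.66 and 3.90 in wildtype libraries, which overlap, and was not called (log2 -1.28, 95% interval -2.66 to 0.11, FDR = 0.203, and -1.57 without d4 wildtype replicate 2).

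**Figure D2:**
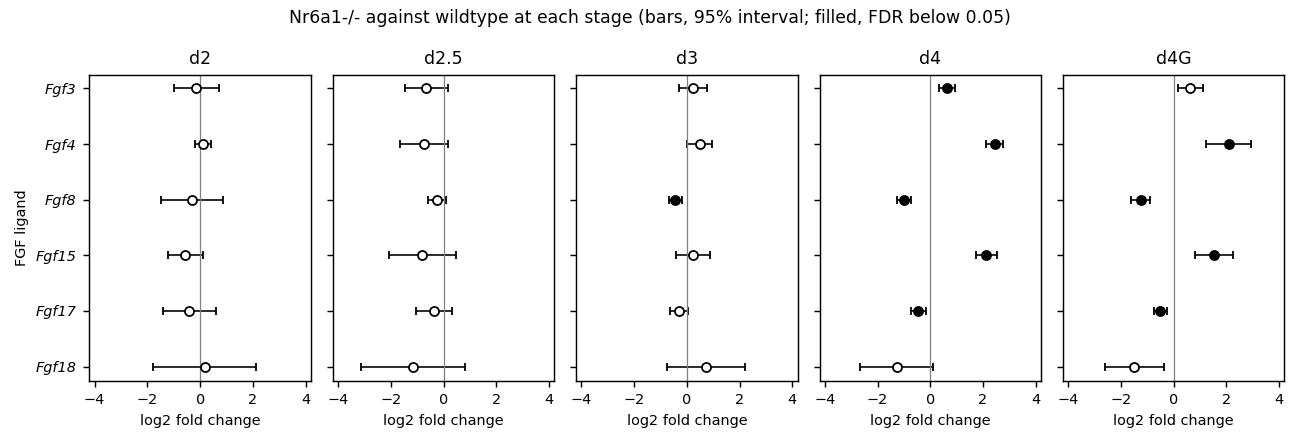
Log2 fold change of each ligand in Nr6a1-/- against wildtype cells at the 5 stages, with bars for the 95% interval and filled points where the edgeR FDR was below 0.05 (n = 3 libraries per group). No ligand is filled at d2 or d2.5, Fgf8 alone is filled at d3 (-0.44), and at d4 Fgf3, Fgf4 and Fgf15 lie above 0 and Fgf8 and Fgf17 below it.

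For Fgf4 and Fgf15 the difference between genotypes grew from d3 to d4. In Nr6a1-/- cells Fgf4 went from 11.6, 15.4 and 17.5 CPM at d3 to 81.9, 84.2 and 107 at d4, and the change from d3 to d4 was 3.91-fold larger than in wildtype (interaction log2 1.97, SE 0.288, FDR = 1.41e-05). Fgf15 went from 4.82, 8.98 and 10.8 to 55.9, 71.6 and 66.0 CPM, a change 3.69-fold larger (1.89, SE 0.386, FDR = 0.0017), which kept its sign but not its call at 1.40 when libraries were thinned to the smallest total. Both genes therefore differed between genotypes in their d3 to d4 change, where 5.72% of all genes were called. Without d4 wildtype replicate 2 the interactions were 2.20 and 1.72, and without d4 Nr6a1-/- replicate 1 they were 2.02 and 1.96, all called. Pool and stage cannot be told apart for Nr6a1-/- replicates 2 and 3 in this test. Fgf8 missed the threshold in that test (-0.57, 95% interval -0.94 to -0.20, FDR = 0.0591), but 6 of 19 alternatives called it, among them the removal of d4 wildtype replicate 2 (-0.67) and of d4 Nr6a1-/- replicate 1 (-0.62) or 3 (-0.69), with an FDR of 0.0325 to 0.185 over all 19. For Fgf3 the interaction was 0.39 (95% interval -0.23 to 1.01, FDR = 0.528), so that its rise was not shown to differ. Over d2 to d3 no ligand was called in the same kind of test by edgeR or DESeq2, with 0 of 6 at an unadjusted p below 0.05 and 2.27% of all genes called. Comparisons at d4 share the d4 libraries with these interactions and are not independent of them.

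With Gdf11 the set separated along another line. Fgf3, Fgf4, Fgf8 and Fgf15 were lower and Fgf17 was higher in both genotypes. Thus 1 ligand rose and 4 fell in wildtype (28.8% of all genes called) and also in Nr6a1-/- cells (18.0%). Pool and Gdf11 cannot be told apart in these tests for all wildtype libraries and for Nr6a1-/- replicate 1. DESeq2 called 5 of 6 in each. The median log2 change of the 6 was -1.73 in wildtype and -1.89 in Nr6a1-/- cells, beside 0.02 and -0.02 over all tested genes.

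Fgf4 fell the furthest, from 12.6, 21.3 and 15.0 CPM at d4 to 2.33, 1.62 and 0.843 at d4G in wildtype (log2 -3.36, SE 0.327, FDR = 4.67e-10) and from 81.9, 84.2 and 107 to 8.18, 5.09 and 6.86 in Nr6a1-/- cells (-3.73, SE 0.202, FDR = 4.31e-17). With d4 wildtype replicate 2 left out, the wildtype value was -3.11. The wildtype d4G level rests on 11 counts in all and lies near the floor of its libraries. Fgf15 fell by 1.92 on the log2 scale in wildtype (SE 0.314, FDR = 1.18e-05) and by 2.52 in Nr6a1-/- cells (SE 0.223, FDR = 3.41e-11). Fgf3 fell by 1.98 (SE 0.191, FDR = 4.08e-10) and 1.97 (SE 0.179, FDR = 6.24e-11), and Fgf8 by 1.54 (SE 0.137, FDR = 4.97e-11) and 1.80 (SE 0.175, FDR = 3.51e-10), in the same order. For these genes no library with Gdf11 reached any library without it, in either genotype. Without d4 wildtype replicate 2 the wildtype changes were -2.07 for Fgf15, -1.98 for Fgf3 and -1.63 for Fgf8, and without d4 Nr6a1-/- replicate 1 those of Nr6a1-/- cells were -3.80 for Fgf4, -2.61 for Fgf15, -1.93 for Fgf3 and -1.76 for Fgf8, all called.

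Fgf17 went the other way. It rose from 46.6, 34.0 and 45.0 CPM at d4 to 102, 92.2 and 94.0 at d4G in wildtype (2.31-fold, log2 1.21, SE 0.127, FDR = 2.5e-09) and from 29.0, 32.4 and 29.8 to 80.8, 54.1 and 66.5 in Nr6a1-/- cells (2.23-fold, log2 1.15, SE 0.144, FDR = 1.05e-07), and by 1.06 and 1.13 without d4 wildtype replicate 2 and d4 Nr6a1-/- replicate 1. Fgf18 had its highest level in d4G wildtype cells, 1.13 on the log2 scale above d4, which missed the threshold (FDR = 0.0706) and was called under 3 of 12 alternatives, 1 of them the removal of d4 wildtype replicate 3 (1.58), while it was 0.84 without replicate 2. Fgf18 passed the filter only through those d4G wildtype libraries, so that this rise is not independent of the filter. In Nr6a1-/- cells its difference was 0.91 (95% interval -0.67 to 2.49, FDR = 0.469).

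**Figure D3:**
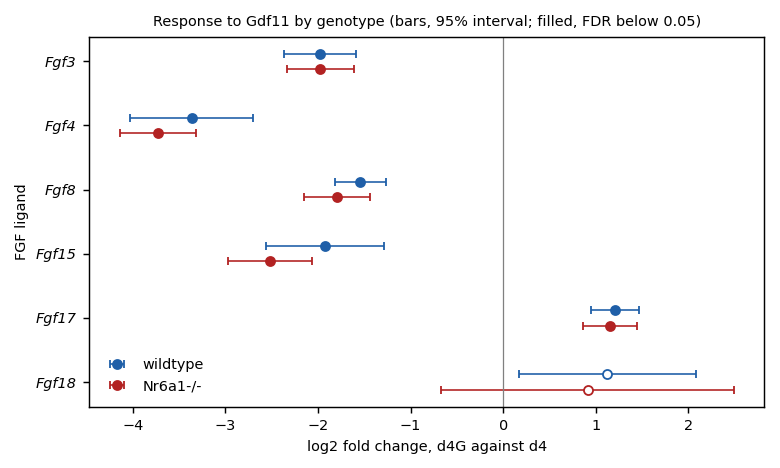
Log2 fold change of each ligand in d4G against d4, in wildtype (blue) and Nr6a1-/- cells (red), with bars for the 95% interval and filled points where the edgeR FDR was below 0.05 (n = 3 libraries per group). Fgf3, Fgf4, Fgf8 and Fgf15 lie between -1.54 and -3.73, Fgf17 lies at 1.21 and 1.15, and the intervals of the genotypes overlap for every ligand.

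The size of the Gdf11 response was not shown to differ between genotypes for any of the 6. No interaction was called by edgeR or DESeq2 and 0 of 6 had an unadjusted p below 0.05, against 2.66% of all genes called. No ligand was called in this test without d4 wildtype replicate 2 or without d4 Nr6a1-/- replicate 1 either. The 95% interval of the difference was -0.43 to 0.44 for Fgf3, -1.49 to 0.76 for Fgf4, -0.71 to 0.21 for Fgf8, -1.47 to 0.29 for Fgf15, -0.45 to 0.34 for Fgf17 and -2.33 to 1.90 for Fgf18. A difference as large as these bounds remains possible, and for Fgf4, Fgf15 and Fgf18 they are wide. In this test too, pool and Gdf11 cannot be told apart for all wildtype libraries and for Nr6a1-/- replicate 1, which is uneven between the genotypes.

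With Gdf11 the genotypes still stood apart for several ligands. At d4G 4 of 6 ligands differed between genotypes, with 2 up and 2 down in Nr6a1-/- cells, against 7.90% of all genes, and DESeq2 also called 4. In edgeR 6 of 6 had an unadjusted p below 0.05, among them Fgf18, which passed the filter through d4G wildtype alone. Fgf4 held 8.18, 5.09 and 6.86 CPM in Nr6a1-/- and 2.33, 1.62 and 0.843 in wildtype libraries (4.23-fold, log2 2.08, SE 0.419, FDR = 0.00066). Fgf15 held 13.9, 10.8 and 9.01 against 1.86, 5.28 and 4.22 CPM (2.88-fold, log2 1.53, SE 0.352, FDR = 0.00317). Both were higher in every Nr6a1-/- library than in any wildtype library.

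Fgf8 was lower, with 19.7, 21.0 and 18.0 CPM against 54.4, 45.5 and 40.1 (0.419-fold, log2 -1.26, SE 0.183, FDR = 4.97e-06). Fgf17 was also lower, at 80.8, 54.1 and 66.5 against 102, 92.2 and 94.0 CPM (0.704-fold, log2 -0.51, SE 0.126, FDR = 0.00683), and this call was lost without d4G Nr6a1-/- replicate 2 (-0.39). Fgf3 (12.5, 17.2 and 13.7 against 11.2, 8.12 and 8.43 CPM) missed the threshold at 0.63 (FDR = 0.0972), and Fgf18 (1.44, 1.91 and 2.57 against 5.12, 5.28 and 6.75 CPM) did so at -1.49 (FDR = 0.0959). Their groups did not overlap, but how many of all genes do so was not counted. Each was called under 1 alternative, Fgf3 with thinned libraries (0.91) and Fgf18 with the compared groups fitted alone (-1.50). For Fgf18 the comparison uses the d4G wildtype libraries through which alone it passed the filter, and it is not independent of that filter.

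Ordered by mean level over the 10 groups, Fgf3, Fgf4 and Fgf15 all stood highest in d4 Nr6a1-/- cells (56.3 ± 7.99, 91.1 ± 14.1 and 64.5 ± 7.97 CPM, SD, n = 3), clear of the next group. For Fgf4 the next were the d2 groups of Nr6a1-/- (43.7 ± 1.69 CPM) and wildtype (40.6 ± 5.02), which overlapped each other, so that d4 Nr6a1-/- cells held more Fgf4 than the epiblast-like stage of either genotype. For Fgf15 each group from d4 wildtype (14.8 ± 2.5) down to d2.5 Nr6a1-/- (1.21 ± 0.171) overlapped the next one in the order, while groups farther apart were clear of each other, such as d4 and d3 wildtype (12.2 to 17.1 against 5.60 to 7.83 CPM). Fgf3 stood clear at each of its upper 3 places, d4 Nr6a1-/-, d4 wildtype (36.4 ± 0.546) and d4G Nr6a1-/- (14.5 ± 2.43). Fgf8 was highest in d4 and d3 wildtype cells (136 ± 14.2 and 131 ± 10.9 CPM), which overlapped. Fgf17 was highest in d4G wildtype (96.2 ± 5.42) and then d4G Nr6a1-/- cells (67.1 ± 13.3), with no overlap between neighbours down to d3. Fgf18 was highest in d4G wildtype (5.71 ± 0.897), clear of the rest, all of which overlapped their neighbours. That is the group through which alone it passed the filter, so that its place is not independent of the filter.

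Over the 10 group means on the log2(CPM + 1) scale, Pearson's r between ligands was 0.82 for Fgf3 and Fgf15, 0.77 for Fgf4 and Fgf15, 0.31 for Fgf3 and Fgf4, 0.70 for Fgf8 and Fgf17, 0.81 for Fgf17 and Fgf18 and 0.42 for Fgf8 and Fgf18. Between these sets it was 0.74 for Fgf3 and Fgf17, 0.61 for Fgf3 and Fgf8, 0.44 for Fgf3 and Fgf18, and 0.39, 0.19 and 0.060 for Fgf15 with Fgf17, Fgf8 and Fgf18. Values from -0.40 to -0.24 were found for Fgf4 with each of Fgf8, Fgf17 and Fgf18. These describe 10 groups from the same libraries and carry no test. Fgf18 passed the filter only through d4G wildtype, where Fgf17 also stood highest, and its other groups held 4 to 24 counts. The correlations of Fgf18 and its list of like genes below are therefore not independent of the filter. Among the 9730 other tested genes that reached a mean of 10 CPM somewhere (9731 for Fgf18), the most like Fgf17 were Hoxb5 (r = 0.99), Bloc1s5 (0.99) and Yaf2 (0.99). For Fgf3 they were Fam162a (0.97), Srek1ip1 (0.96) and Mettl2 (0.96), and for Fgf8 Mydgf (0.96), Mfge8 (0.96) and Gyg (0.96). The genes most like Fgf4 were Mcm6 (0.93), Ndufa7 (0.92) and Hsp90ab1 (0.92), those most like Fgf15 were Actr10 (0.94), Stoml2 (0.94) and Mxi1 (0.94), and those most like Fgf18 were Stau2 (0.96), Tril (0.94) and Adamtsl2 (0.92).

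Since Fgf3, Fgf4 and Fgf15 rose together at d4, the genes around them were examined, a look chosen after these values were known. Within 500 kb of the 3 ligands the annotation lists 26 genes, of which 9 were tested, the ligands included. At d4 the other 6 comprised 1 rise, 1 fall and 4 genes that were not called, beside 18.9% of all genes called. Ccnd1, the cyclin gene that follows Fgf15 and the small RNA gene Bc1, was lower in Nr6a1-/- cells (135.7 against 183.5 CPM, log2 -0.44, SE 0.0883, FDR = 0.000354). Bc1, which lies nearest to Fgf15, had a difference of -0.21 (95% interval -0.49 to 0.06, FDR = 0.299). On the other side, Fadd, the nearest tested gene to Fgf3, had -0.28 (95% interval -0.74 to 0.18, FDR = 0.433), Ppfia1 0.12 and Cttn 0.06. Shank2, the farthest, was called higher (log2 2.03, FDR = 0.0437) at 0.728 and 2.80 CPM, which is 6 and 19 counts.

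**Figure D4:**
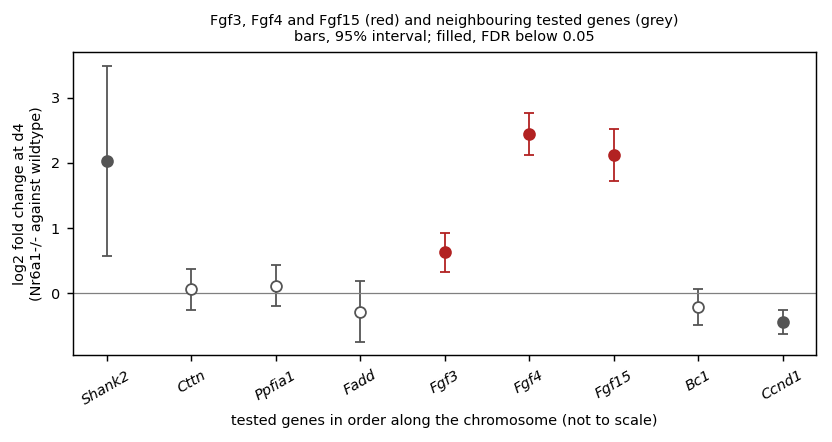
Log2 fold change in d4 Nr6a1-/- against d4 wildtype cells for the 9 tested genes around Fgf3, Fgf4 and Fgf15, in their order along the chromosome and not to scale. Bars are 95% intervals and filled points have an edgeR FDR below 0.05 (n = 3 libraries per group). The ligands lie at 0.63, 2.45 and 2.12, Fadd and Bc1 on either side lie at -0.28 and -0.21 and are not filled, and Ccnd1 lies at -0.44.

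Of 16 other FGF ligands in the mouse, all had a row and 3 were tested, Fgf5, Fgf9 and Fgf13. Fgf9, a ligand of several embryonic tissues, appeared at d4 in wildtype cells, from 0.749 CPM at d3 to 36.3 ± 4.86 (SD, n = 3), and was lower in Nr6a1-/- cells at d4 (12.2 ± 1.23, log2 -1.57, FDR = 9.09e-06) and d4G (6.85 ± 0.537 against 15.1 ± 4.55, log2 -1.14, FDR = 0.0218). Fgf5, an epiblast ligand, was called lower at d4 (log2 -3.35, FDR = 0.0296), but its wildtype libraries ran from 0 to 8.84 CPM and it is 1 of the epiblast markers that are high in d4 wildtype replicate 2. Fgf13 was not called between genotypes at any stage.

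Among 7 receptor and co-receptor genes, 3 were tested, and Fgfr1, the main receptor of the tailbud, was the only one called between genotypes, at d4 (72.0 ± 15.0 against 42.7 ± 2.25 CPM, log2 0.75, FDR = 7.63e-05). It also rose with Gdf11 in wildtype (log2 1.08, FDR = 6.88e-08) and in Nr6a1-/- cells (0.69, FDR = 0.00011), where 4 of the ligands fell. Fgfr2 and Fgfrl1 were not called between genotypes. Of the 14 genes that report or restrain ERK signalling, all tested, 6 were up and 1 was down in Nr6a1-/- cells at d4, with a median log2 difference of 0.44 beside 0.02 over all genes, of which 18.9% were called. The 6 were Spry4 (1.53, FDR = 1.39e-06), Etv4 (1.19, FDR = 4.43e-08), Dusp6 (1.02, FDR = 0.00188), Spry2 (0.90, FDR = 0.000464), Il17rd (0.71, FDR = 0.00523) and Spred1 (0.45, FDR = 0.0259), and Egr1, an immediate early gene, was lower (-1.02, FDR = 3.76e-06). At d2.5 4 of the 14 were higher (Spred1, Dusp6, Etv4 and Etv5), beside 6.45% of all genes called. With Gdf11, 2 rose and 4 fell in wildtype (28.8% of all genes called) and 3 rose and 5 fell in Nr6a1-/- cells (18.0%), and Etv4 fell further in the latter (interaction -0.91, FDR = 0.0189).

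Of 11 genes of heparan sulfate and FGF carriers, 4 were higher and 0 lower at d4 (median 0.28), beside 18.9% of all genes called. They were Fgfbp1, a secreted carrier of FGFs (1.84, FDR = 3.55e-06), the glypican gene Gpc3 (1.05, FDR = 0.000731), the sulfatase gene Sulf1 (0.77, FDR = 0.000231) and the syndecan gene Sdc1 (0.38, FDR = 0.0196). Of 8 retinoid genes, 7 were tested and 3 were higher at d4 (median 0.18, the same 18.9% of all genes), Aldh1a2, which makes the retinoic acid that opposes FGF in the tailbud (376 against 12.0 CPM, log2 4.96, FDR = 1.22e-22), Dhrs3 (2.04, FDR = 7.97e-14) and Crabp2 (0.89, FDR = 1.19e-07). With Gdf11, Aldh1a2 fell in both genotypes, as did Fgf3, Fgf4, Fgf8 and Fgf15.

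Markers of other cell types moved along with these results at d4, where 18.9% of all genes were called. Of 7 paraxial mesoderm markers, 6 were tested, of which 5 were up and 0 down in Nr6a1-/- cells, and their summed level was 887 to 932 CPM against 389 to 480.4 in wildtype, with none at 0. Of 8 endoderm markers, 7 were tested, 0 were higher and 6 lower, with sums of 41.3 to 47.6 against 200.3 to 218 CPM and none at 0. Of these, Sox17, Foxa2, Gata4 and Gata6 passed the filter only through wildtype groups, so that the count of lower endoderm markers is not independent of the filter. Of 7 NMP markers, 4 were higher and 1 lower, with sums of 739 to 873 against 521 to 558 CPM. Of 7 neural progenitor markers, 6 were tested, 1 was higher and 4 lower, with sums of 48.5 to 80.1 against 64.7 to 82.0 CPM and Olig2 at 0 in Nr6a1-/- cells. Among them Sox1 also passed the filter only through wildtype groups. Of 7 epiblast markers, 0 were higher and 5 lower, and they summed to 101 to 103 CPM in Nr6a1-/- cells, which lies below d4 wildtype replicate 2 and above the other 2 wildtype libraries, with Otx2 at 0. The 5 lower calls were not repeated without d4 wildtype replicate 2. The sum at d2 was 2712 to 3673 CPM over both genotypes. Of 8 feeder fibroblast markers, 5 were tested, 0 were higher and 1 lower, with sums of 122 to 141 against 103 to 141 CPM. The part of these markers in the differences of Fgf3, Fgf4, Fgf8, Fgf15 and Fgf17 was not tested.

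Markers also moved with Gdf11 and between genotypes at d4G. Of all genes, 28.8% were called with Gdf11 in wildtype, 18.0% with Gdf11 in Nr6a1-/- cells and 7.90% between genotypes at d4G. With Gdf11, 4 of the 6 tested paraxial mesoderm markers fell and 0 rose in each genotype, their sum going from 389 to 480.4 down to 212 to 239 CPM in wildtype and from 887 to 932 down to 359 to 398 in Nr6a1-/- cells. NMP markers had 3 rises and 2 falls in wildtype (sums of 561 to 578 CPM at d4G) and 0 rises and 4 falls in Nr6a1-/- cells (413 to 459). Of the neural progenitor markers 0 rose and 3 fell in wildtype (18.6 to 36.3 CPM at d4G), and 1 rose and 1 fell in Nr6a1-/- cells (16.4 to 26.1). Of the epiblast markers 5 fell in wildtype, where d4 replicate 2 is high, and 0 in Nr6a1-/- cells. Endoderm markers had 0 rises and 2 falls in wildtype and 1 of each in Nr6a1-/- cells, and 2 feeder fibroblast markers rose in each genotype. Between genotypes at d4G, 2 NMP markers were higher and 4 lower, 3 paraxial mesoderm markers were higher and 0 lower, and 6 endoderm markers were lower, with sums of 30.8 to 42.7 against 136 to 148 CPM. There the neural and feeder lists had 0 higher and 1 lower each, and 0 epiblast markers were called. Since Sox17, Foxa2, Gata4, Gata6 and Sox1 passed the filter only through wildtype groups, the endoderm and neural counts are not independent of the filter. The part of these markers in the Gdf11 responses of the ligands and in their genotype differences at d4G was not tested.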

How the data were processed

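RNA was measured in 30 libraries in 10 groups, wildtype or Nr6a1-/- cells at 5 stages, with 3 replicates per group taken from the sample titles. The study's methods describe priming from the poly(A) tail, which added an index and a molecular identifier (UMI), and alignment by the authors with STAR. The submitters' processing notes name mm10. Versions, how counts and strand were handled and whether UMIs were collapsed are not given in the sources used here. The deposited table lists raw counts, whole numbers for each gene in each library. If UMIs were not collapsed, amplified copies are counted, and limits for a count of 0 cover counting error alone. Tables of the authors' own edgeR comparison at each stage, with log2 fold changes and p-values, were not used. All 30 count columns were matched to a sample by name, and 0 remained.

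The filter asked for over 10 counts and over 2 CPM in 2 or more libraries of the same group, which kept 12149 of 54134 rows and at least 99.2% of the counts of any library. Kept genes were scaled by TMM and fitted with edgeR 4.0.16 under R 4.3.3 in a model of all 10 groups (20 residual degrees of freedom). The 13 comparisons used glmQLFit followed by glmQLFTest, 2-sided, with Benjamini-Hochberg adjustment over all tested genes and an FDR threshold of 0.05. The standard error is the size of the log2 fold change over the root of its F value, and 95% intervals use the fitted degrees of freedom. The procedure was tested on simulated counts. P-values set differences between groups against the estimated spread between these libraries. They do not cover spread between clones, since all Nr6a1-/- libraries come from 1 clone. Chi-square per gene between replicates was 1.45 to 6.68 over 30 pairs.

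The genes named are the 6 ligands in every comparison, genes of the FGF pathway lists and marker lists, Nr6a1, and for each ligand the 3 genes with the highest Pearson's r over the 10 group means of log2(CPM + 1). The genes around Fgf3, Fgf4 and Fgf15 were added after their values were known. The ligands and lists were chosen with earlier results of these data known. Alternatives were RLE factors, no normalisation factors, no filter, the replicate number as a block, counts thinned to the smallest total (1570714), the compared groups fitted alone, DESeq2 1.42.0 and the removal of each library in turn.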

Additional observations from a re-analysis of the deposited data

Results flagged for a closer look

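The change from d3 to d4 differed between genotypes for Fgf4 and Fgf15, tested as an interaction in edgeR with Benjamini-Hochberg adjustment. For Fgf4 the difference was 1.97 on the log2 scale (FDR = 1.41e-05), and it was called under all 19 alternatives, at 1.82 to 2.20. For Fgf15 it was 1.89 (FDR = 0.0017) and was called under 18 of 19, at 1.40 to 2.15, the exception being thinned libraries. Every Nr6a1-/- library at d4 was above every wildtype library for both genes, but how many of all genes do so was not counted.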

How the results depend on the processing

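Of 453 values of a called ligand under an alternative, 422 kept direction and call, 31 kept direction and lost the call, and 0 turned, and every value that turned belonged to a ligand that was not called. Turned values with all libraries were Fgf3 in the Gdf11 interaction (-0.014 without normalisation factors and -0.0060 without the filter), Fgf18 from d2.5 to d3 (-0.017 with the replicate block), and Fgf3 (-0.16) and Fgf17 (0.13) in the d3 to d4 interaction with thinned libraries. Thinning left 211 genes called in the Gdf11 interaction (323 before), 183 in the d2 to d3 interaction (276) and 1 ligand in the d3 to d4 interaction. Fitting the compared groups alone gave 1398 genes at d4 (2294), 212 in the Gdf11 interaction and 440 in the d3 to d4 interaction (695), with fewer libraries in each fit.

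Removing 1 library gave 304 to 392 called genes at d2 (494), 478 to 775 at d2.5 (784), 871 to 1084 at d3 (1308), 1487 to 2625 at d4, 205 to 823 in the Gdf11 interaction and 443 to 1157 in the d3 to d4 interaction, the last 3 ranges running from d4 Nr6a1-/- replicate 3 to replicate 1, and 0 to 1 ligands at d3. The cause was not tested. Among uncalled ligands the values ran at d2 from -0.67 to 0.073 (Fgf3), -0.68 to 0.23 (Fgf8) and -0.68 to 0.68 (Fgf18), at d3 from -0.029 to 0.50 (Fgf15), in wildtype from -0.44 to 1.22 (Fgf18, d2 to d2.5), -0.66 to 1.14 (Fgf18, d2.5 to d3) and -0.020 to 0.15 (Fgf8, d3 to d4), in the Gdf11 interaction from -0.10 to 0.16 (Fgf3), -0.20 to 0.094 (Fgf17) and -0.67 to 0.37 (Fgf18), and in the d2 to d3 interaction from -0.67 to 0.24 (Fgf8), -0.23 to 0.33 (Fgf17) and -0.12 to 1.41 (Fgf18).

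The replicate numbers were not shown to pair the libraries. Correlations of deviations between libraries with the same number ran from -0.11 to 0.17. The highest, 0.12 and 0.17, were those of replicates 1 and 3 between d4 and d4G wildtype. Of 30 libraries, 14 correlated best with their own number, and in 0 of 10 pairs of groups were all over 0.1. With the replicate block 2383 genes were called at d4 and the d3 to d4 interaction of Fgf8 was called (-0.57), 3 ligands in place of 2. Depth limits Fgf18, at 4 to 40 counts per group, and single groups of other ligands, such as Fgf4 in d4G wildtype (11 counts) and Fgf15 in d2.5 Nr6a1-/- cells (10).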
